A study of Mus musculus with 8 samples.

Results

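The mitochondrial ribosomal protein genes were examined in mouse embryos that were cultured with or without trimetazidine (TMZ). Members were all protein-coding genes of the annotation whose symbol starts with Mrpl or Mrps followed by a number, which gave 78 genes. Of these, 68 could be assigned to an entry of both deposited tables, among 22359 genes assigned in both. The other 10 (Mrpl36, Mrpl39, Mrpl42, Mrpl52, Mrpl54, Mrps2, Mrps7, Mrps18c, Mrps28 and Mrps36) were not assigned in both tables and are not analysed here. RNA was sequenced from 8-cell embryos and from morulae, in which the blastomeres have compacted. All embryos came from ICR mice, were wild type and were grown in KSOM medium. The TMZ groups received 100 µM TMZ, an inhibitor of long-chain 3-ketoacyl-CoA thiolase in fatty acid β-oxidation, and the control groups were cultured without it. The labels put the start of TMZ at the 2-cell stage, while the study's methods name both that stage and the zygote. Each of the 4 groups (8-cell control, 8-cell TMZ, morula control, morula TMZ) held 2 libraries. Each library was made with an amplification kit for full-length mRNA of single cells, and the number of embryos in a library was not given in the sources used here.

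Mitochondria carry their own genome, which encodes a small set of hydrophobic subunits of the respiratory chain and of ATP synthase. A dedicated ribosome in the matrix translates these mRNAs, and it resembles bacterial ribosomes more than cytosolic ones. Its RNA is made inside the organelle, while all of its proteins are encoded in the nucleus, made in the cytosol and imported. Part of these proteins have bacterial counterparts and part were added in the mitochondrial lineage. The mitochondria of a cleavage-stage embryo are inherited from the oocyte, while transcripts for these proteins come from the oocyte and, after activation, from the embryonic genome.

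Library totals behind the FPKM values (fragments scaled by gene length and library size) ranged from 31672356 to 64814423. The smallest whole number that a member's FPKM allowed in any library was 336, which counts amplified reads and not the RNA molecules captured from the embryos. At the 8-cell stage 10 of 12 assigned embryo and lineage markers had a group mean of at least 1 FPKM, and at the morula stage 12 of 13. Summed FPKM of this list was 160 to 210 at the 8-cell stage and 11098 to 17761 at the morula stage. The sums do not cover the same genes and cannot be compared between the stages. At the morula stage Pou5f1, Nanog, Klf5, Tead4, Tfap2c, Cdx2, Gata3, Krt8, Krt18 and Cdh1 were each at 58.4 FPKM or less. Nearly all of the morula sum thus came from the rest of the list. Whether an entry of this list carries a wrong name was not tested. Sox2 was at 0 in the morula groups. Of 9 cumulus cell markers 4 were assigned, and only 1 of these, Amhr2, had a group mean of at least 1 FPKM. Summed FPKM of the 4 was 13.9 to 19.5 in 8-cell control and 8.22 to 8.45 in 8-cell TMZ, with Foxl2 at 0 in both. It was 6.42 to 13.3 in the morula groups. Amhr2 made up nearly all of this sum, at 19.5 and 13.9 in 8-cell control and 8.41 and 8.21 in 8-cell TMZ. The 3 assigned blood and immune markers summed to 13.3 to 14.6 in 8-cell control, 6.81 to 11.2 in 8-cell TMZ and stayed within these limits in the morula groups. The 6 oocyte transcripts summed to 18.6 to 31.1 at the 8-cell stage and 7.97 to 17.1 at the morula stage. The oocyte sum moved with stage, and Amhr2 and the blood sum with TMZ at the 8-cell stage. The part of these transcripts in the results below was not tested.

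Every assigned member was expressed at both stages, and most were well above the typical gene. All 68 averaged 1 FPKM or more at each stage, so the filter on low values removed none. The median of the members' mean FPKM over the 8 libraries was 42.4, compared to 5.67 for the 8851 genes tested in both tables, and 66 of 68 members lay above that gene median. Mean FPKM reached 10 in 63 members and 100 in 15. Since FPKM divides by gene length, levels can be set side by side between genes, with the limit that the lengths used were unions of all exons (607 bp for Mrpl34 to 8631 bp for Mrps35) and lower the FPKM of genes with long retained introns.

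The highest member was Mrpl22, a protein at the exit tunnel of the large subunit (chr11:58062475-58070412 in GRCm39). Its FPKM was 633 and 966 in 8-cell control, 1525 and 734 in 8-cell TMZ, 708 and 896 in morula control, and 741 and 858 in morula TMZ. Its mean of 883 was 3.55 times that of the second member, and every library of Mrpl22 lay above every library of any other member. In Mrpl22, 34.5% of the 31-base stretches of the exons also occur elsewhere in the genome. Mrpl12, the stalk protein that recruits translation factors, followed with 213 to 303 FPKM (mean 249), and Mrpl34, a protein of the large subunit, with 162 to 263 (mean 217). Mrpl20 (145 to 196) and Mrpl40 (134 to 175) came next. The ranges of these last 4 genes overlapped with their neighbours in the order, so their order was not separated by the spread between libraries. At the other end stood Mrps25 (1.64 to 7.58 FPKM), Mrps35 (3.31 to 8.29) and Mrps5 (1.05 to 4.88), all of the small subunit and with overlapping ranges.

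**Figure D1:**
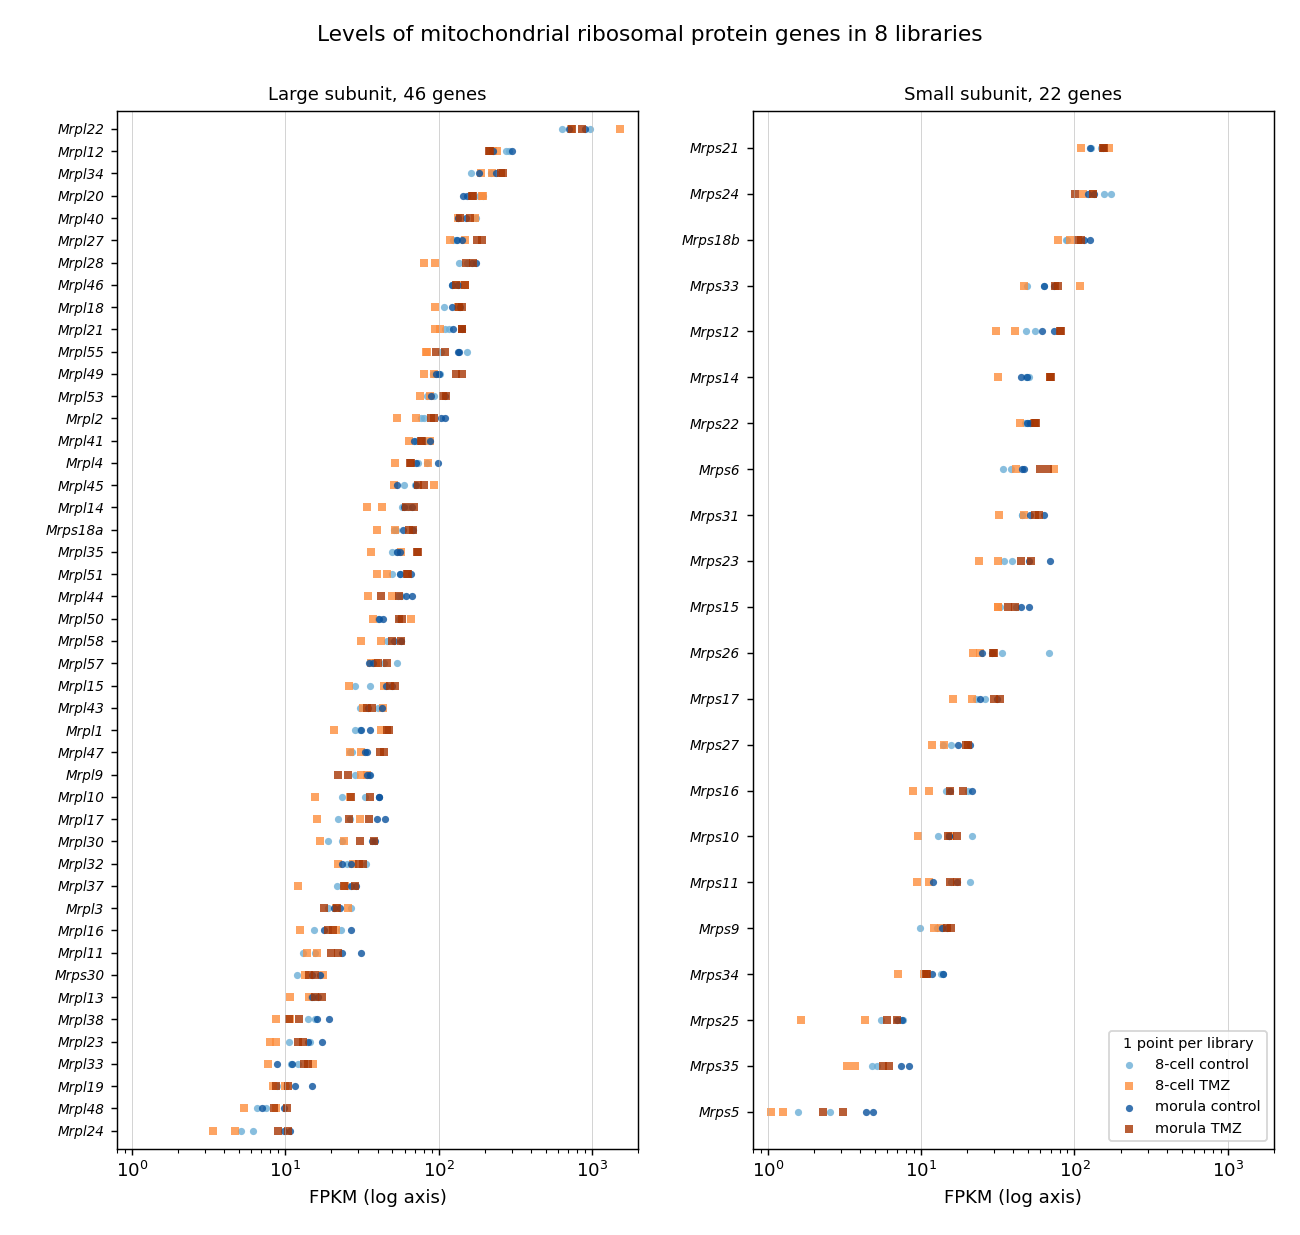
FPKM (log axis) of the 68 members in the 8 libraries, with large subunit genes on the left and small subunit genes on the right, each sorted by mean level; every point is a library and colours mark the 4 groups. Mrpl22 stands apart at 633 to 1525 FPKM, most members lie between 10 and 100, and 8-cell TMZ holds the lowest points of many genes.

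The 46 large subunit members had a median mean FPKM of 49.1 and the 22 small subunit members 35.8. Mrps30 and Mrps18a count among the large subunit here, since both proteins sit there despite their symbols. The 27 members specific to mitochondria had a median of 49.4, and the 41 with a bacterial counterpart 35.2. Summed over genes and without Mrpl22, large subunit FPKM was 3.03 to 3.32 times small subunit FPKM in all 8 libraries. These sums cover more large than small subunit genes and leave out members not assigned, so the ratio is not one per gene. The summed FPKM of the members without Mrpl22 lay between 3253 and 4373. The median member was at 39.7 and 41.1 FPKM in 8-cell control, 38.6 and 31.8 in 8-cell TMZ, 45.1 in both morula control libraries, and 51.1 and 46.2 in morula TMZ. Morula libraries were thus all above the 8-cell ones in this median, with the lowest value in the second TMZ library of the 8-cell stage.

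Promoters of the members were examined because nuclear respiratory factor 1 (NRF1), ETS factors such as GABP (NRF-2) and YY1 are known to act on many nuclear genes for mitochondrial proteins. RefSeq promoter windows (GRCm38.p6, 250 bases before to 50 bases after the start) were matched for 61 of the 68 members. The NRF1 motif (GCGC, any base, then TGCGC, on either strand) was in 12 of the 61 windows (19.7%), compared to 4.6% of all 32851 windows and 11.9% of the 5754 windows of tested genes. The ETS motif CCGGAAG was in 23 member windows (37.7%, compared to 8.86% and 22.2%), and the YY1 motif GCCATNTT in 18 (29.5%, compared to 6.05% and 10.4%). No motif is contained in another, and a match describes the letters and not a bound site. The 250 bases before the start are printed for the member with the largest fall under TMZ at the 8-cell stage, the one with the largest rise towards the morula under TMZ, the highest member and the transcription-linked stalk protein, in this order, with a matching motif in capitals (ETS in Mrpl22 and, on the other strand, in Mrps26, YY1 in Mrps12, NRF1 in Mrpl12). The counts used the whole windows, in which Mrps26 also matched NRF1 and Mrps12 also matched ETS, outside the printed bases.
Mrps26, chr2:130563507-130563756, + strand: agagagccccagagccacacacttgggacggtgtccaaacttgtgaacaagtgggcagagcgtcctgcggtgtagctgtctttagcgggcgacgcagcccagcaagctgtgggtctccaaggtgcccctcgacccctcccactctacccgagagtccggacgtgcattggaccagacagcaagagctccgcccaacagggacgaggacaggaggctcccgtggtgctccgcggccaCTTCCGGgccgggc
Mrps12, chr7:28741822-28742071, - strand: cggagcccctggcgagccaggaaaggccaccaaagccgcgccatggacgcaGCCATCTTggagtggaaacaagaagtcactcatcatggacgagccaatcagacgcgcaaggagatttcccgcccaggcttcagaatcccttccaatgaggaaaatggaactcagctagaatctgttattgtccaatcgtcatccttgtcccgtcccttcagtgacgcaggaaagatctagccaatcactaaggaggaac
Mrpl22, chr11:58171414-58171663, + strand: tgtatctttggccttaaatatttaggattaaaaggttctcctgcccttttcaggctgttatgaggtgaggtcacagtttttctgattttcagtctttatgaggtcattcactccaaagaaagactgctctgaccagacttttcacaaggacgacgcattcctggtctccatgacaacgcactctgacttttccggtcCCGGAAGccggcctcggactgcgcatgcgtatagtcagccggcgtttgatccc
Mrpl12, chr11:120484387-120484636, + strand: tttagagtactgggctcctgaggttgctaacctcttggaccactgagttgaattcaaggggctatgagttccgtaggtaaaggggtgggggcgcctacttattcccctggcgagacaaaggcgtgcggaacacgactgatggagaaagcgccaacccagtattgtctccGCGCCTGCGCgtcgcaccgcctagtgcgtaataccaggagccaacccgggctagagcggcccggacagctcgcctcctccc
Differences were set side by side for members with and without a motif. For YY1 the median log2 difference between the stages under TMZ was 0.54 in the 18 members with the motif and 0.30 in the 43 without, for NRF1 0.22 in 12 and 0.48 in 49, and for ETS 0.36 in 23 and 0.43 in 38. In the other 3 comparisons the medians with and without YY1 were closer, at −0.20 and −0.07 for TMZ at the 8-cell stage, 0.08 and 0.00 for TMZ at the morula stage, and 0.18 and 0.14 between the stages in control. Those for NRF1 were −0.17 and −0.18, 0.07 and 0.05, and 0.04 and 0.16 in this order, and those for ETS −0.12 and −0.20, 0.09 and −0.01, and 0.13 and 0.15. These medians are descriptions without a test.

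To examine TMZ at the 8-cell stage, the TMZ libraries were compared to the control group. A member was called when its unadjusted P was under 0.05 and its difference in log2(FPKM + 1) went beyond 0.5, the threshold of the study's plots. Mrps26 and Mrpl28 were downregulated and no member was upregulated. That is 2.94% of the members lower, compared to 4.96% of all 10021 entries tested, and 0% higher, compared to 1.35% of entries. No entry at all passed an adjusted P of 0.05 in this comparison by limma or by voom, with 632 entries and 2 members at an unadjusted P under 0.05 by limma. FPKM is a share of each library, and in such pooled RNA fewer cells and less RNA per cell cannot be told apart.

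Mrps26, a small subunit protein specific to mitochondria (chr2:130405658-130410616), was at 33.7 and 68.3 FPKM in 8-cell control and at 21.8 and 24.2 in 8-cell TMZ. The log2 difference was −1.03 ± 0.38 (SE; adjusted P = 0.771). It was −1.53 without control 1 and −0.54, no longer called, without control 2. Both TMZ libraries were below both controls, and the control libraries differed from each other more than those of any other member in that group (SD 0.70 on the log2 scale). Mrpl28, a large subunit protein with a bacterial counterpart (chr17:26342469-26345588), had 152 and 135 FPKM in control and 94.9 and 80.0 in TMZ, a difference of −0.71 ± 0.27 (adjusted P = 0.771). The groups did not overlap, which the rule for naming called members required. Leaving out a library gave −0.83 to −0.59, and the call was lost without either control library.

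Further genes of both subunits had low values in 8-cell TMZ without passing the threshold. Of the large subunit, Mrpl14 differed by −0.65 ± 0.30 and Mrpl38 by −0.57 ± 0.34 on the log2 scale. Mrps25 was at 7.58 and 5.50 FPKM in control and at 4.30 and 1.64 in TMZ (−1.0 ± 0.45 on the log2 scale), a value that became −1.50 when TMZ library A was left out and −0.50 when library B was. Mrps11, a platform protein next to the mRNA exit, was at 20.7 and 15.7 and at 11.2 and 9.38 (−0.76 ± 0.34). Exons of Mrps25 share 4593 bases with Nr2c2, and those of Mrps11 share 173 bases with Mrpl46, on the opposite strand, and the strand setting of the counting is not given in the sources used here. The highest differences, also short of the threshold, were those of Mrps6 (38.6 and 34.0 in control, 41.6 and 73.4 in TMZ, 0.60 ± 0.35), Mrpl22 (0.44 ± 0.37) and Mrps33 (49.3 and 63.1, 109 and 47.1, 0.36 ± 0.40). Exons of Mrps6 share 709 bases with Slc5a3 and Gm49711 on the same strand, so its value is uncertain. In these 3 genes a single TMZ library carried most of the difference, and for Mrpl22 and Mrps33 the groups overlapped.

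The members' median log2 difference was −0.19, as was the median of all entries (−0.19), and 49 of 68 (72.1%) were below 0, compared to 69.1% of entries. TMZ lay below control without overlap in 26 members (38.2%, compared to 29.6% of entries) and above it in 1 (1.47%, compared to 8.09%). Small subunit members had a median of −0.39 with 18 of 22 below 0, and large subunit members −0.12 with 31 of 46 below 0. When libraries were scaled by the median ratio to the table's mean, the median of all entries moved to 0.05 and that of the members to 0.09, so the sign of the members' median at this stage changed with the scaling; Mrps26 and Mrpl28 kept a negative difference (−0.75 and −0.42) but were no longer called, and Mrps6 was (0.88). The equal medians were an average of 2 TMZ libraries that differed, with 49 of 68 members higher in library A. Without library A the members' median was −0.31 and that of all entries −0.11, and 8 members (11.8%, compared to 5.24% of entries) were called lower (Mrpl14, Mrpl28, Mrpl37, Mrps11, Mrps12, Mrps16, Mrps25 and Mrps26). Without library B the medians were −0.06 and −0.29, and 4 members were called lower (5.88%, compared to 15.4% of entries), so the order of members and entries turned round between the 2 libraries. Without control 1 only Mrps26 was called lower (1.47%, compared to 1.98% of entries), and without control 2 none (0%, compared to 1.93%).

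At the morula stage, Mrps14 was upregulated and Mrps5, Mrpl38 and Mrpl9 were downregulated in TMZ-treated embryos compared to the control group. This was 1.47% of members higher, compared to 7.16% of the 9685 entries tested, and 4.41% lower, compared to 10.7% of entries. Of all entries 3 passed an adjusted P of 0.05, by limma as by voom, none of them a member, and 1900 entries and 11 members had an unadjusted P under 0.05. No member passed the threshold under TMZ at both stages.

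Mrps14, a protein of the small subunit head (chr1:160022785-160030541), was at 48.9 and 45.0 FPKM in morula control and at 69.8 and 68.8 in morula TMZ, a log2 difference of 0.55 ± 0.16 (SE; adjusted P = 0.177). Mrpl9, a large subunit protein with a bacterial counterpart (chr3:94350594-94358437), fell from 35.5 and 34.2 to 25.6 and 22 (−0.53 ± 0.17, adjusted P = 0.203). Mrpl38, of the central protuberance and specific to mitochondria (chr11:116022641-116029700), fell from 16 and 19.3 to 12.3 and 10.6 (−0.58 ± 0.20, adjusted P = 0.21). Mrps5, near the mRNA entry of the small subunit (chr2:127429135-127448789), fell from 4.38 and 4.88 to 3.10 and 2.30 (−0.61 ± 0.22, adjusted P = 0.222). In each of these 4 genes the groups did not overlap. The rule by which called members were named required this, so it adds no separate evidence. When a library was left out, Mrps14 kept the call only without control 1, and Mrps5 only without TMZ 1. Mrpl38 kept it without control 1 or without TMZ 1, and Mrpl9 without control 2 or without TMZ 1. Exons of Mrps14 share 568 bases with Cacybp on the other strand.

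Close to the threshold on the upper side were Mrpl1, of the mobile L1 stalk (35.5 and 31 in control, 47.2 and 46.2 in TMZ, 0.48 ± 0.17), and Mrpl49, specific to mitochondria (96.3 and 101, 129 and 143, 0.45 ± 0.15), both with TMZ above control. The median member differed by 0.04, compared to −0.08 for all entries, with 37 members (54.4%) above 0, compared to 42.7% of entries. TMZ lay above control without overlap in 19 members (27.9%, compared to 22.3% of entries) and below it in 18 (26.5%, compared to 33.3%). The median was 0.02 in the large and 0.06 in the small subunit, 0.03 in members specific to mitochondria and 0.05 in those with a bacterial counterpart. Under median-ratio scaling the members' median was 0.16 and that of all entries 0.03; 8 members were then called higher (Mrpl1, Mrpl27, Mrpl33, Mrpl35, Mrpl49, Mrpl50, Mrps6 and Mrps14; 11.8%, compared to 10.6% of entries) and none lower (0%, compared to 7.09%). Counts also moved with single libraries. Without TMZ 1 there were 0 members higher and 5 lower (0 and 7.35%, compared to 6.89 and 10.7% of entries), and without TMZ 2 none in either direction (entries 3.61 and 4.5%). Without control 1 there were 2 higher and 4 lower (2.94 and 5.88%, compared to 8.39 and 10.9%), and without control 2 there were 3 higher and 1 lower (4.41 and 1.47%, compared to 5.57 and 6.02%). In the same comparison 8 of 12 tested embryo and lineage markers were lower (Pou5f1, Nanog, Klf5, Tead4, Tfap2c, Cdx2, Krt8 and Cdh1), compared to 10.7% of entries. By limma none of the 8 passed an adjusted P of 0.05 (0.161 to 0.225), and their part in the members' values was not tested.

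**Figure D2:**
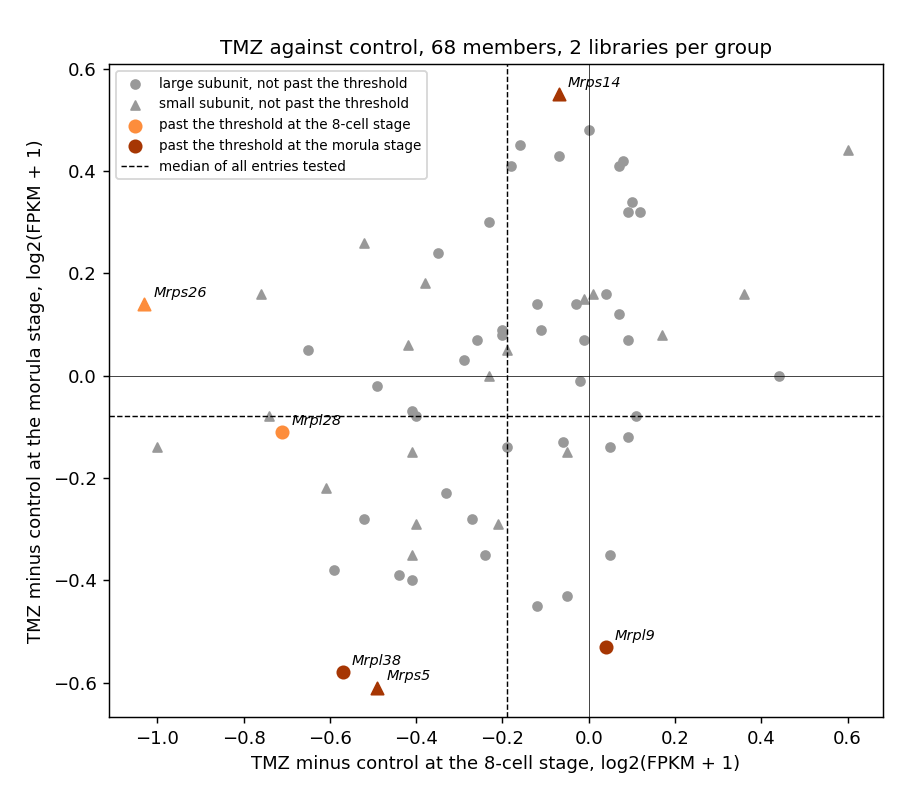
Difference between TMZ and control in log2(FPKM + 1) for the 68 members, at the 8-cell stage (x axis) and at the morula stage (y axis), with circles for the large and triangles for the small subunit; dashed lines mark the median of all entries tested (−0.19 and −0.08). Coloured points passed the threshold at 1 stage (2 at the 8-cell stage, 4 at the morula stage) and none did at both.

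The morula was next compared to the 8-cell stage, in 8851 genes assigned in both tables and in a fit of all 8 libraries. Each stage was deposited as a table of its own, so stage and table cannot be told apart. In control embryos 7 members were upregulated at the morula stage and 1 was downregulated. This was 10.3% of members higher, compared to 7.16% of genes, and 1.47% lower, compared to 11.8% of genes. By limma an adjusted P of 0.05 was passed by 61 genes and by no member (by voom 22 genes and no member), with 9 members at an unadjusted P under 0.05 and a lowest adjusted P of 0.11.

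The largest rise in control was in Mrps5, from 2.53 and 1.57 FPKM to 4.38 and 4.88 (0.90 ± 0.28, adjusted P = 0.139). Mrpl11, at the base of the stalk where translation factors bind, rose from 15.7 and 13 to 23.3 and 31.4 (0.87 ± 0.25, adjusted P = 0.11). Mrpl30, of the large subunit, rose from 19.0 and 23.3 to 38.2 and 36.8 (0.80 ± 0.25, adjusted P = 0.139). In these 3 genes every morula library was above every 8-cell library of the control group, which the rule for naming called members required. Mrpl17 (0.77 ± 0.31), Mrpl24 of the exit tunnel rim (0.75 ± 0.26), Mrps23 (0.68 ± 0.25) and Mrps35 (0.57 ± 0.25) rose in the same way. Mrpl17 and Mrps35 lost the call whichever library was left out, and Mrpl24 kept it only without 8-cell control 2. Mrps5 and Mrps23 lost it without 8-cell control 2 and without morula control 2, where Mrps23 was at 0.45. Mrpl11 lost it without morula control 2 and Mrpl30 without 8-cell control 1. Mrps26 fell from 33.7 and 68.3 to 25.0 and 28.8 (−0.82 ± 0.31, adjusted P = 0.197). That difference was −1.31 without 8-cell control 1 and −0.32 without 8-cell control 2, and it was called in 1 of the 4 fits that left out a library. Below 0 without passing the threshold were Mrpl57 (43.9 and 53.3, then 35.1 and 37.6, −0.40 ± 0.21) and Mrpl20 (−0.34 ± 0.18).

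The members' median in control embryos was 0.15, compared to −0.07 for all genes, with 52 of 68 (76.5%) above 0, compared to 43.8% of genes. The morula lay above the 8-cell stage without overlap in 29 members (42.6%, compared to 22.5% of genes) and below it in 4 (5.88%, compared to 32.5%). With median-ratio scaling the median was 0.25 (all genes 0.02), with 10 members higher (14.7%, compared to 9.93% of genes) and none lower (0%, compared to 9.32%). Without 8-cell control 1 the count higher was 3 (4.41%, compared to 7.57% of genes), without 8-cell control 2 it was 3 (4.41%, compared to 4.21%), without morula control 1 it was 4 (5.88%, compared to 4.67%) and without morula control 2 it was 1 (Mrpl30; 1.47%, compared to 3.72%). A share of members called higher above that of all genes was thus not kept without 8-cell control 1 or morula control 2.

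In TMZ-treated embryos 21 members were upregulated at the morula stage and none was downregulated. This was 30.9% of members higher, compared to 11.1% of genes, and 0% lower, compared to 7.93% of genes. The members' median was 0.38, compared to 0.07 for all genes, and 57 of 68 (83.8%) were above 0, compared to 55.3%. The stages were apart with the morula higher in 41 members (60.3%, compared to 28.9% of genes) and lower in 3 (4.41%, compared to 20.5%). By limma no member and 65 genes passed an adjusted P of 0.05 (by voom no member and 81 genes), with 22 members at an unadjusted P under 0.05, and the lowest adjusted P of a member was 0.0568. These values use the same 8-cell TMZ libraries as the comparison with control at that stage, where the members' median was −0.19.

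Mrps12, a protein of the decoding centre whose bacterial counterpart is known for streptomycin resistance (chr7:28439066-28441680), had the largest rise. It was at 41.0 and 31 FPKM in 8-cell TMZ and at 80.0 and 81.7 in morula TMZ, a log2 difference of 1.16 ± 0.22 (adjusted P = 0.0568). Mrpl24 (chr3:87826798-87832192) rose from 4.70 and 3.38 to 8.94 and 10.5 (1.10 ± 0.26, adjusted P = 0.0847), and Mrpl28 from 94.9 and 80.0 to 167 and 150 (0.85 ± 0.19, adjusted P = 0.0735). In all 3 the morula libraries were apart from the 8-cell ones, which the rule for naming called members required. The call of all 3 was kept without each of the 4 libraries in turn. Exons of Mrpl24 share 1807 bases with Mettl25b on the other strand, while those of Mrps12 and Mrpl28 overlap no gene. Mrps25 rose by 1.0 ± 0.35, Mrps23 by 0.79 ± 0.25, Mrps5 by 0.78 ± 0.28, Mrpl14, at the interface of the subunits, by 0.77 ± 0.21, and Mrpl30 by 0.73 ± 0.25. Without 8-cell TMZ library B Mrps25 was at 0.50 and Mrpl30 at 0.48, and neither these nor Mrps5 were called. Mrps23 lost the call without library A, and Mrpl14 without morula TMZ 2. Without morula TMZ 1 the call was lost in Mrps25, Mrps23, Mrps5 and Mrpl30. The other 13 members that rose were Mrpl2, Mrpl21, Mrpl35, Mrpl47, Mrpl49, Mrpl51, Mrpl58, Mrps11, Mrps16, Mrps17, Mrps18a, Mrps27 and Mrps35. By subunit, 9 of 22 small and 12 of 46 large subunit members rose (medians 0.45 and 0.36), and by origin 8 of 27 specific to mitochondria and 13 of 41 with a bacterial counterpart. The lowest differences, none past the threshold, were those of Mrpl9 (−0.44 ± 0.22), Mrpl22 (−0.41 ± 0.34) and Mrpl3 (−0.23 ± 0.25).

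The comparison in control and that under TMZ share no library, but they come from a single fit, with an SE for each gene that is common to both, and from the same pair of tables. Mrpl24, Mrpl30, Mrps5, Mrps23 and Mrps35 rose in both, which is 71.4% of the 7 that rose in control and 23.8% of the 21 under TMZ. The same shares over all genes were not computed, so this overlap cannot be read as particular to the members. The count under TMZ depended on which library of the 8-cell TMZ group was in the fit. Without library A 33 members were higher (48.5%, compared to 12.1% of genes), and an adjusted P of 0.05 was passed by 11 members and by 728 genes in all. Without library B 10 were higher (14.7%, compared to 15.9% of genes) and Mrpl22 was lower, so the share of members above that of genes was not kept without this library, while their median was 0.31 and that of all genes 0.16. Without morula TMZ 1 the count was 6 (8.82%, compared to 5.3% of genes) and without morula TMZ 2 it was 8 (11.8%, compared to 6.8%). With median-ratio scaling, which divided library A by 0.824, 9 members were higher (13.2%, compared to 9.87% of genes) and Mrpl9 was lower, and the median stayed above that of all genes (0.32 and 0.03).

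**Figure D3:**
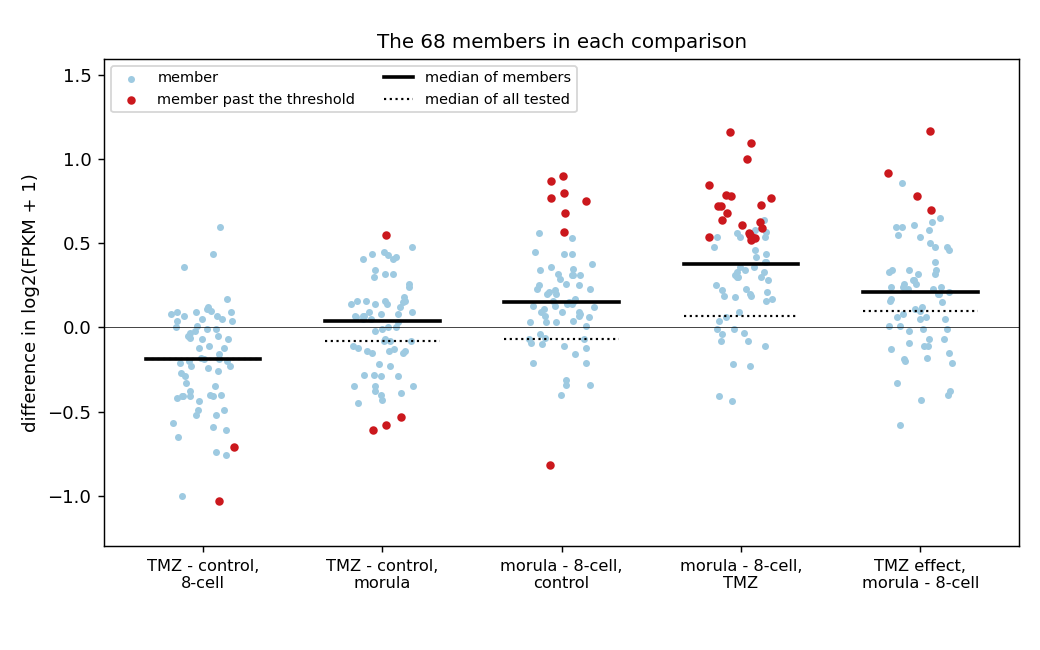
Difference in log2(FPKM + 1) of each of the 68 members (points; red, past the threshold) in the 5 comparisons, with the median of the members (solid bar) and of all entries or genes tested (dotted bar). The bars coincide at −0.19 for TMZ at the 8-cell stage and are farthest apart for the morula against the 8-cell stage under TMZ (0.38 and 0.07).

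The difference between the TMZ effects at the 2 stages was tested as an interaction. It was positive in Mrps26, Mrps11, Mrps12 and Mrpl14 (5.88% of members, compared to 6.28% of genes) and negative in no member (0%, compared to 1.43%). The members' median was 0.21 and that of all genes 0.10, with 72.1% of members above 0, compared to 59.3% of genes. The count of positive members ran from 0 (without either morula TMZ library or morula control 1) to 13 (19.1%, compared to 8.01% of genes, without 8-cell TMZ library A). No member or gene passed an adjusted P of 0.05 by limma or by voom, with 683 genes and 4 members at an unadjusted P under 0.05.

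**Figure D4:**
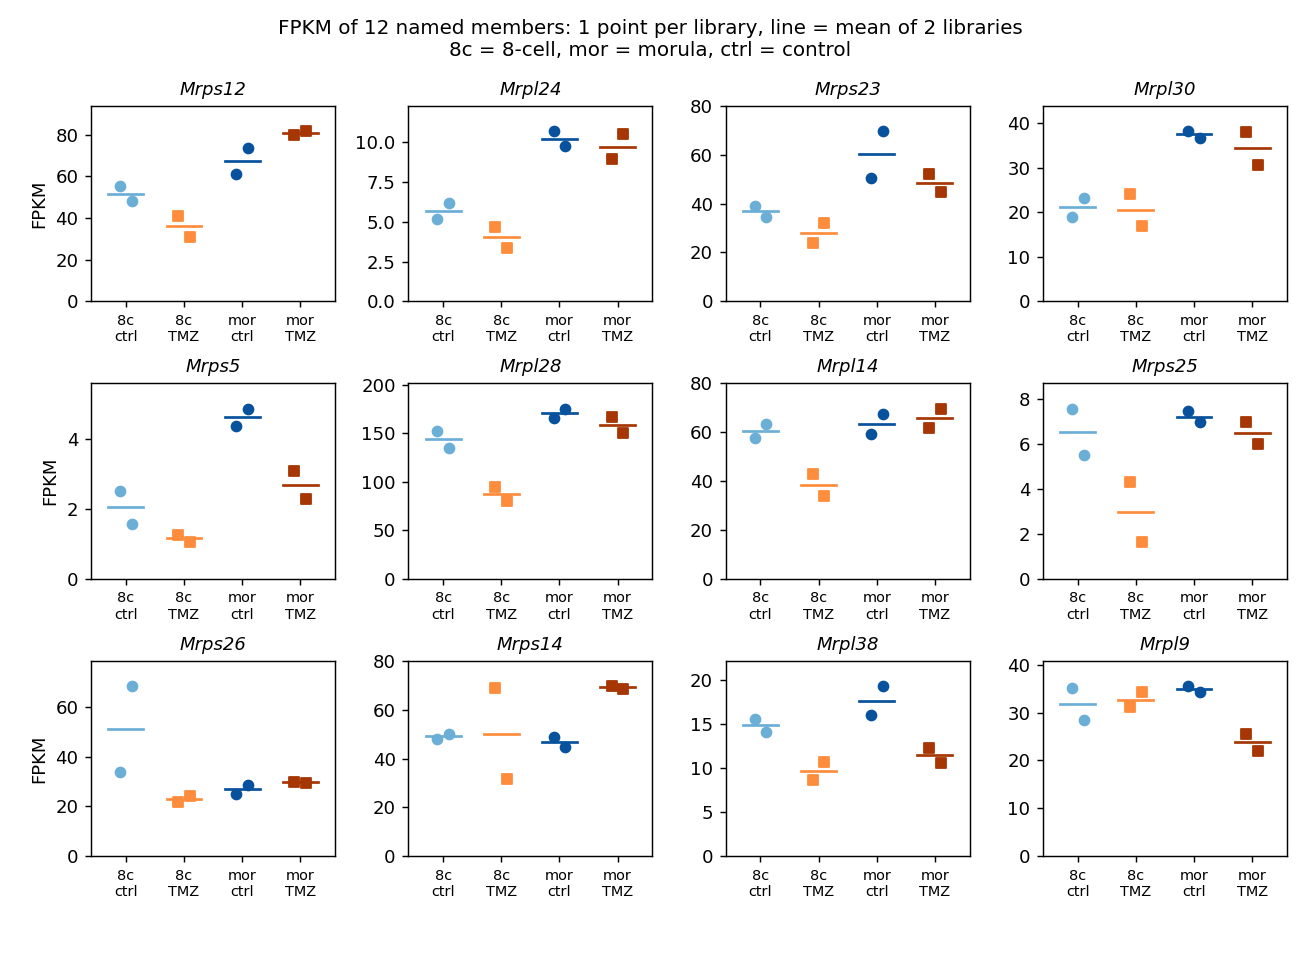
FPKM of 12 members in the 4 groups (8c, 8-cell; mor, morula; ctrl, control), with 1 point for each library, a line at the mean of 2 libraries and axes starting at 0. Mrps12 lay between 31 and 55.2 at the 8-cell stage and between 61.2 and 81.7 at the morula stage, and the 8-cell TMZ libraries were lowest in Mrpl28, Mrpl14 and Mrps26.

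Several members with a role beyond the core of the ribosome were followed whatever their values. Mrpl12 also binds the mitochondrial RNA polymerase. Its FPKM was 288 and 275 in 8-cell control, 225 and 241 in 8-cell TMZ, 226 and 303 in morula control and 213 and 217 in morula TMZ. TMZ was below control at both stages without overlap, by −0.27 ± 0.25 and −0.28 ± 0.18, and neither difference passed the threshold. Mrpl10, which anchors Mrpl12 in the stalk, was at 33.1, 23.6, 15.7 and 26.3 FPKM at the 8-cell stage and at 40.6, 41.1, 35.6 and 26.9 at the morula stage (controls first). Its differences under TMZ were −0.44 ± 0.37 and −0.39 ± 0.19, and between the stages 0.53 ± 0.30 and 0.58 ± 0.30, all short of the threshold.

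Mrpl58, a peptidyl-tRNA hydrolase that rescues stalled ribosomes, was at 45.8 and 57.1 in 8-cell control, at 42.1 and 31 in 8-cell TMZ, and between 49.9 and 56.8 at the morula stage. It rose between the stages under TMZ (0.54 ± 0.23, adjusted P = 0.246) and differed by 0.08 ± 0.23 in control. Of the paralogs of bacterial S18, Mrps18a was at 39.7 to 52.9 FPKM at the 8-cell stage and 58.2 to 68.2 at the morula stage, and Mrps18b at 78.0 to 94.0 and 106 to 126. Every morula library of both genes was above every 8-cell library, and only Mrps18a under TMZ passed the threshold (0.54 ± 0.22). In Mrps18b 37.3% of exon stretches occur elsewhere in the genome. Mrps30 was at 11.9 to 17.7 and 14.2 to 16.9, with no difference beyond its SE between the stages (0.15 ± 0.26 and −0.04 ± 0.26).

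Further genes of mitochondrial translation came from lists of pathway genes. Of 5 mitochondrial ribosomal proteins with other symbols, Dap3, a GTP-binding protein of the small subunit, rose between the stages in control (0.89 ± 0.31) and under TMZ (1.10 ± 0.31). It was at 8.00, 5.71, 3.51 and 6.37 FPKM at the 8-cell stage and at 12.8, 13.9, 12.5 and 10.2 at the morula stage. Chchd1 rose between the stages in TMZ-treated embryos (0.64 ± 0.22), and Gadd45gip1, a large subunit protein, fell between them in both conditions (−0.92 ± 0.28 and −0.66 ± 0.28). Of all genes 7.16% were higher and 11.8% lower between the stages in control, and 11.1% higher and 7.93% lower under TMZ. None of the 5 was called between TMZ and control at either stage. Of entries 1.35% were higher and 4.96% lower at the 8-cell stage, and 7.16% and 10.7% at the morula stage.

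Among translation factors, none of 14 tested was called under TMZ at the 8-cell stage, compared to 1.35% of entries higher and 4.96% lower. The list median was −0.42 there, compared to −0.19 for all entries. At the morula stage 3 of 13 were lower and none higher, compared to 10.7% and 7.16% of entries. Tufm, the elongation factor that delivers aminoacyl-tRNA, fell from 61.6 and 59.8 to 43.2 and 35.6 FPKM (−0.62 ± 0.17, adjusted P = 0.177). Gfm1, the translocase, fell by 0.53 ± 0.21 and Oxa1l, which inserts new proteins into the inner membrane, by 0.71 ± 0.29. The list median was −0.34, compared to −0.08 for all entries and 0.04 for the ribosomal proteins. Between the stages Mtrfr rose in both conditions (0.90 ± 0.37 and 1.06 ± 0.37), and the initiation factor Mtif2 (0.72 ± 0.27) and the elongation factor Tsfm (0.68 ± 0.28) rose under TMZ, of 14 tested. Of all genes 7.16% were higher in control and 11.1% under TMZ. In Tufm 66.5% of exon stretches occur elsewhere in the genome.

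Assembly and rRNA modification factors were the next list. None of 23 was called under TMZ at the 8-cell stage, compared to 1.35% of entries higher and 4.96% lower. At the morula stage Mterf3, an assembly factor of the large subunit, was higher (30.1 and 22.9 against 44.8 and 45.2 FPKM, 0.75 ± 0.19), and Rbfa (−0.70 ± 0.28), Ddx28 (−0.53 ± 0.20), Mrm1 (−0.73 ± 0.23) and Gtpbp6 (−0.65 ± 0.23) were lower, of 26 tested. Of all entries 7.16% were higher and 10.7% lower. Between the stages the GTPase Mtg1 rose (0.74 ± 0.30 in control, 0.85 ± 0.30 under TMZ), as did the rRNA methyltransferase Tfb1m (0.82 ± 0.32 and 1.04 ± 0.32), and the helicase Dhx30 fell in control (−0.82 ± 0.26), of 25 tested. Of all genes 7.16% were higher and 11.8% lower in control, and 11.1% higher and 7.93% lower under TMZ. Of 3 transcription factors of the organelle that were tested, Tfb2m fell between the stages (−0.59 ± 0.23 and −0.60 ± 0.23), and 64.9% of its exon stretches occur elsewhere. Of 5 nuclear regulators tested, Yy1 fell from the 8-cell to the morula stage in TMZ-treated embryos (−0.85 ± 0.29), and none was called between TMZ and control at either stage.

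The substrates of these ribosomes are the 13 mRNAs of the mitochondrial genome. Summed over them, FPKM was 17043 and 27555 in 8-cell control, 13612 and 26032 in 8-cell TMZ, 14258 and 7713 in morula control, and 14675 and 14094 in morula TMZ. The libraries of both 8-cell groups and of morula control were far apart, and those of morula TMZ were close. Between the stages in control, 6 of 13 fell (mt-Nd2, mt-Nd6, mt-Cytb, mt-Co1, mt-Co3 and mt-Atp8), compared to 11.8% of all genes. The median was −0.93, compared to −0.07 for all genes, while 7 of the ribosomal protein genes rose. Under TMZ none of 13 was called between the stages, compared to 11.1% of genes higher and 7.93% lower. Their median was −0.15 there, compared to 0.07 for all genes. The complex I gene mt-Nd6 was at 403 and 503 FPKM in 8-cell control and at 156 and 267 in 8-cell TMZ (−1.14 ± 0.31, adjusted P = 0.759), and mt-Atp8 fell as well (−1.25 ± 0.51). At the morula stage mt-Cytb (0.68 ± 0.26), mt-Co1 (0.98 ± 0.35), mt-Co3 (0.71 ± 0.24) and mt-Atp8 (1.08 ± 0.22) were higher under TMZ, and mt-Co2 was lower (−0.89 ± 0.17). Of all entries 4.96% were lower under TMZ at the 8-cell stage, and 7.16% were higher and 10.7% lower at the morula stage. In mt-Co2, mt-Co3 and mt-Atp8 100.0% of the 31-base stretches occur elsewhere in the genome, in mt-Co1 63.9% and in mt-Cytb 6.6%. The values of genes with high percentages are therefore uncertain.

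**Figure D5:**
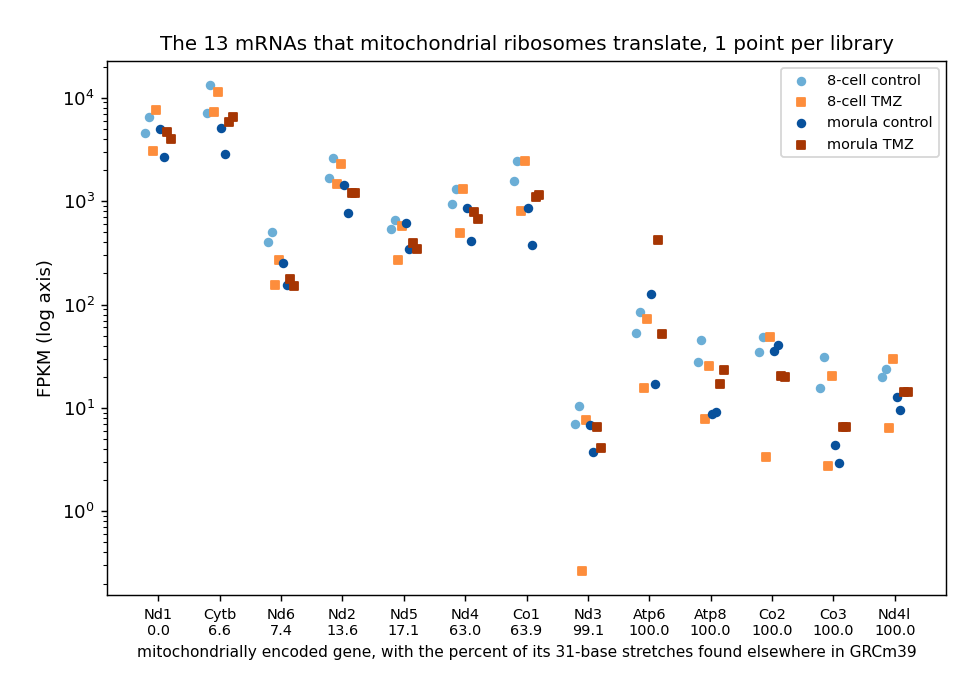
FPKM (log axis) of the 13 mitochondrially encoded mRNAs in the 8 libraries, in the order of the percent of their 31-base stretches that occur elsewhere in the genome (second line of the x labels). The 7 genes with 0.0 to 63.9% lie at 150 to 13254 FPKM, and the 6 genes with 99.1 to 100.0% lie at 0.267 to 424 FPKM.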

How the data were processed

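RNA-seq libraries of 8-cell and morula embryos, control and TMZ, were analysed in 2 tables of FPKM values deposited by the authors, who per the submitters' processing notes used fastp 0.23.4, STAR 2.7.9a and featureCounts 2.0.6 on GRCm39. Each library is scaled by its own total. The tables hold no gene names. Library totals, whole numbers and lengths were recovered from the low values, the entries were aligned in order to GENCODE vM39 exonic lengths with a pair hidden Markov model, and names were kept at a posterior of at least 0.95 (lowest member 0.958). At the 8-cell stage 8916 of 10021 tested entries were named (89.0%), at the morula stage 8623 of 9685. The assignment and the fits were checked on simulated data. Recovered numbers were even in 78.8% and 81.0% of low entries, so reads and not pairs may have been counted, and they are given as smallest whole numbers.

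Tests used limma 3.58.1 (R 4.3.3; lmFit and eBayes with a trend) on log2(FPKM + 1) in entries averaging 1 FPKM or more, within each table for TMZ and over 8 libraries with 4 group means between the stages. Members were called at an unadjusted P under 0.05 and a log2 difference beyond 0.5, and adjusted P is Benjamini-Hochberg over all entries or genes tested. Named were, per comparison, the 8 largest rises and falls past the threshold without overlap of the groups (where fewer than 3 passed, the 3 largest by value), the 5 highest and 3 lowest members, members past the threshold in both of a pair of comparisons, 8 preset members, and list genes past the threshold; lists of called members and genes positive in the interaction were added after their values were seen. The members and lists were chosen with earlier results of these data known.

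The headers of both 8-cell TMZ columns are identical; the libraries are named A and B here, without a replicate number. The study describes the 2 replicates as biologically independent, but the labels do not say so, and P-values then measure only the spread between these libraries, which may be technical. Deviations from the group means correlated by 0.0762 (morula control with morula TMZ) and 0.0742 (8-cell control with morula control) between same-numbered libraries, which did not pair them. The 31-base exonic stretches found elsewhere in GRCm39 show where reads can be shared; how these were handled is not given in the sources used here. Of 68 members, 6 had 20% or more (Mrpl27 50.5%, Mrps21 41.3%, Mrps18b 37.3%, Mrpl22 34.5%, Mrps33 30.8%, Mrpl41 20.6%), and the exons of 39 overlap another gene.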

Additional observations from a re-analysis of the deposited data

Results flagged for a closer look

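In 4 members the TMZ effect differed between the stages by the interaction test of limma, at an unadjusted P under 0.05, and none passed after adjustment. That is 5.88% of members, below the 6.28% of all genes, and the count ran from 0 to 13 when a library was left out. Mrps26 differed by 1.17 (morula minus 8-cell, log2 scale, SE 0.44, adjusted P = 0.575): TMZ against control gave −1.03 in 8-cell embryos and 0.14 in morulae. For Mrps11 the difference was 0.92 (SE 0.38, adjusted P = 0.609), from −0.76 and 0.16. Mrps12 gave 0.78 (SE 0.32, adjusted P = 0.60), from −0.52 and 0.26. In Mrpl14 it was 0.70 (SE 0.30, adjusted P = 0.634), from −0.65 and 0.05. All 4 lay lower in both 8-cell TMZ libraries than in both 8-cell controls. Low 8-cell TMZ values raise the interaction by which the 4 were chosen, so this adds no separate evidence. The same held for 38.2% of members and 29.6% of entries. Under median-ratio scaling the differences were 1.0, 0.76, 0.61 and 0.53 in the same order and none was called. Each of the 4 lost the call in at least 5 of the 8 fits that left out a library, and Mrps26 was at 0.67 without 8-cell control 2.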

How the results depend on the processing

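Alternatives were a pseudocount of 0.1, no filter, a mean of at least 5 FPKM, median-ratio scaling, a posterior of at least 0.99, voom on the recovered numbers, all 8 libraries in a single fit, limma without trend, and leaving out each library. Median-ratio scaling gave, for members higher, lower and their median, 1, 0 and 0.09 for TMZ at the 8-cell stage, 8, 0 and 0.16 for TMZ at the morula stage, 10, 0 and 0.25 between the stages in control, 9, 1 and 0.32 between the stages under TMZ, and 0, 1 and 0.03 in the interaction (Mrpl9 being the member lower in the last 2). It also moved the share of all calls that were lower, from 78.6 to 46.6%, from 60 to 40.2%, from 62.3 to 48.4%, from 41.6 to 50.1% and from 18.6 to 35.4% in the same order. Without a filter 4 members were lower under TMZ at the 8-cell stage (Mrpl14, Mrpl28, Mrpl38 and Mrps11, not Mrps26), which is 5.88%, compared to 1.81% of entries. In the interaction 7 were then higher (10.3%, compared to 3.43% of genes). These shares of entries and genes include those with low values. With all 8 libraries in a single fit 10 were lower at the 8-cell stage under TMZ (14.7%, compared to 10.4% of genes). In that fit 0 were higher at the morula stage under TMZ (0%, compared to 4.11% of genes). The interaction count was 2 with voom (2.94%, compared to 4.77% of genes) and 2 with limma without trend (2.94%, compared to 6.36%).

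Leaving out a library, where the remaining one is assumed to vary like the others, gave for TMZ at the 8-cell stage 0 to 2 members higher, 0 to 8 lower and a median of −0.31 to −0.06. At the morula stage under TMZ it gave 0 to 3 higher, 0 to 5 lower and −0.06 to 0.14. Between the stages in control it gave 1 to 4 higher, 0 to 1 lower and 0.08 to 0.27, and under TMZ 6 to 33 higher, 0 to 1 lower and 0.31 to 0.57. For the interaction it gave 0 to 13 higher (13 without 8-cell TMZ A), 0 to 3 lower and 0.09 to 0.34. The cause of these changes was not tested; with a library left out fewer samples remain. Of 440 values of named members under alternatives, 338 kept direction and call, 84 kept direction and lost the call, 15 gained it, and 3 that were not called changed sign.

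With the replicate number as a block, 1 member was higher and 3 lower under TMZ at the morula stage, and 7 were higher and 1 lower between the stages in control, the same counts as without it, with Mrpl15 called in place of Mrps35 in the latter; over all entries or genes the block gave 229 in place of 3 and 319 in place of 61 at an adjusted P under 0.05. No paired analysis was possible because the 8-cell TMZ libraries carry no number, for the other 3 comparisons. The lowest of the members' smallest whole numbers in a library was 336; this counts amplified reads, and the number of RNA molecules behind a value is unknown.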

Other observations

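Within the 13 mitochondrial mRNAs the level went with how much of the sequence also lies elsewhere in the genome. The 6 genes with 99.1 to 100.0% of their 31-base stretches elsewhere in GRCm39 (mt-Nd3, mt-Atp6, mt-Atp8, mt-Co2, mt-Co3 and mt-Nd4l) were at 0.267 to 424 FPKM, and the other 7 (0.0 to 63.9%) at 150 to 13254 FPKM. The mt-Co2 mRNA was at 3.33 FPKM in 8-cell TMZ A and at 48.4 in TMZ B, and mt-Co3 at 2.73 and 20.3. These values are given without a test.

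The spread between replicates of the members was smaller than that of genes in general in every group. The median SD on the log2 scale was 0.14 in 8-cell control, 0.26 in 8-cell TMZ, 0.12 in morula control and 0.09 in morula TMZ, compared to 0.22, 0.32, 0.17 and 0.15 over genes tested, which have lower levels. In 8-cell TMZ the members were higher in library A by a median of 0.25 on the log2 scale, with the largest spread in Mrps33 (SD 0.84). Members took 1.441% of the summed FPKM in library A and 1.006% in library B, and 1.171 to 1.360% in the other 6 libraries.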
